A study of Mus musculus with 4 samples.

Results

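Quiescent lymphocytes are held out of the cell cycle and out of effector programmes in part by regulators of transcription that are abundant in naive and resting T cells. Regulatory T cells (Treg) are the CD4 cells whose identity depends on the factor Foxp3. In them, proteins of this kind mark the resting, lymph node-homing state, and several recede when a Treg is activated and takes on effector functions. The group described here has 10 members: the repressor Bach2, the forkhead factors Foxp1 and Foxo1, the HMG-box factors Tcf7, Lef1 and Sox4, the chromatin organiser Satb1, the zinc finger repressor Klf3, the helix-loop-helix inhibitor Id3, and Myb. Myb is listed with them although, in mice, it is also needed for the differentiation of effector Treg.

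The members were selected by name, with earlier results of these arrays known, and each gene is represented by the probe set chosen by its mean log2 intensity over the 4 arrays, the brightest one that carries the gene's symbol alone. Of the 10 members 9 had such a probe set, and all 9 were among the 12114 genes tested of 22180 genes with a probe set of their own. Tcf7 is not analysed here. Because the group was named with these results in view, the differences below are a description of the members and not independent support for a direction of the group.

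RNA came from Treg sorted as CD4+ cells positive for a green fluorescent Foxp3 reporter from mice of the strain Foxp3Luci-DTR-4(B6 Albino), 4 days after intraperitoneal injection of an antibody. In the anti-DR3 group it was an agonistic antibody to death receptor 3 (DR3, encoded by Tnfrsf25), a costimulatory receptor of the tumour necrosis factor receptor superfamily, and in the other group an isotype control antibody. Each group had 2 arrays, and all animals carried the same reporter strain. The labels give neither age, sex nor dose, and do not say whether an array holds 1 mouse or a pool, and a p-value here reflects just the spread between arrays, which may be technical. Values are robust multi-array average (RMA) intensities, a background-corrected and normalized brightness per probe set. They set 1 gene against itself across arrays, not different genes against each other.

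The sorted marker was present in both groups, since Foxp3 gave intensities of 3891 and 3825 after anti-DR3, against 3805 and 3581 after control antibody. All 12 Treg identity genes listed, Foxp3 among them, were tested, and 1 rose and 3 fell, with a median difference of 0.09 on the log2 scale. The rise was Ikzf2, the gene of Helios (0.58, limma adjusted p = 0.0193), and the falls were the receptor Gpr83 (-1.09, limma adjusted p = 0.0207), Lrrc32, which anchors latent TGF-beta (-0.62, limma adjusted p = 0.0228), and the interleukin 2 receptor chain Il2ra (-0.49, limma adjusted p = 0.0441). Of these calls only that of Gpr83 was also made with an array left out, in the fit without control antibody replicate 2 (limma adjusted p = 0.0387). Over the genes tested, arrays correlated at r = 0.992 within the anti-DR3 group, 0.989 within the control group and 0.975 to 0.980 between groups. In limma, which compares the groups gene by gene with a spread borrowed across genes, 5.96% of the genes tested passed a Benjamini-Hochberg adjusted p of 0.05, made up of 4.49% higher and 1.47% lower after anti-DR3. That is 544 genes higher and 178 lower, a split that became 348 and 243 when each array was centred on its median.

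Of the 9 members measured, Satb1, Bach2 and Foxp1 fell after anti-DR3, by 0.88, 0.69 and 0.63 on the log2 scale, which is 1.84-, 1.61- and 1.55-fold. Sox4 was also called lower, but it passed the filter on dim genes through the control arrays alone and so had to differ, and its call and the size of its difference (-0.97) are given as a description. Foxo1, Lef1, Klf3 and Id3 had smaller negative differences that did not pass, and Myb lay on the other side with a positive difference of 0.65 that did not pass either. The median difference of the 9 was -0.32, and -0.30 for the 8 without Sox4, against 0.01 over all genes tested. The 2 groups of arrays did not overlap for any of the 9, with 8 members (7 without Sox4) lower and 1 higher after anti-DR3. Of all genes tested, 24.6% were lower and 31.6% higher without overlap. In bulk RNA of a sorted population, fewer cells of a resting type and less RNA per cell cannot be told apart.

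**Figure D1:**
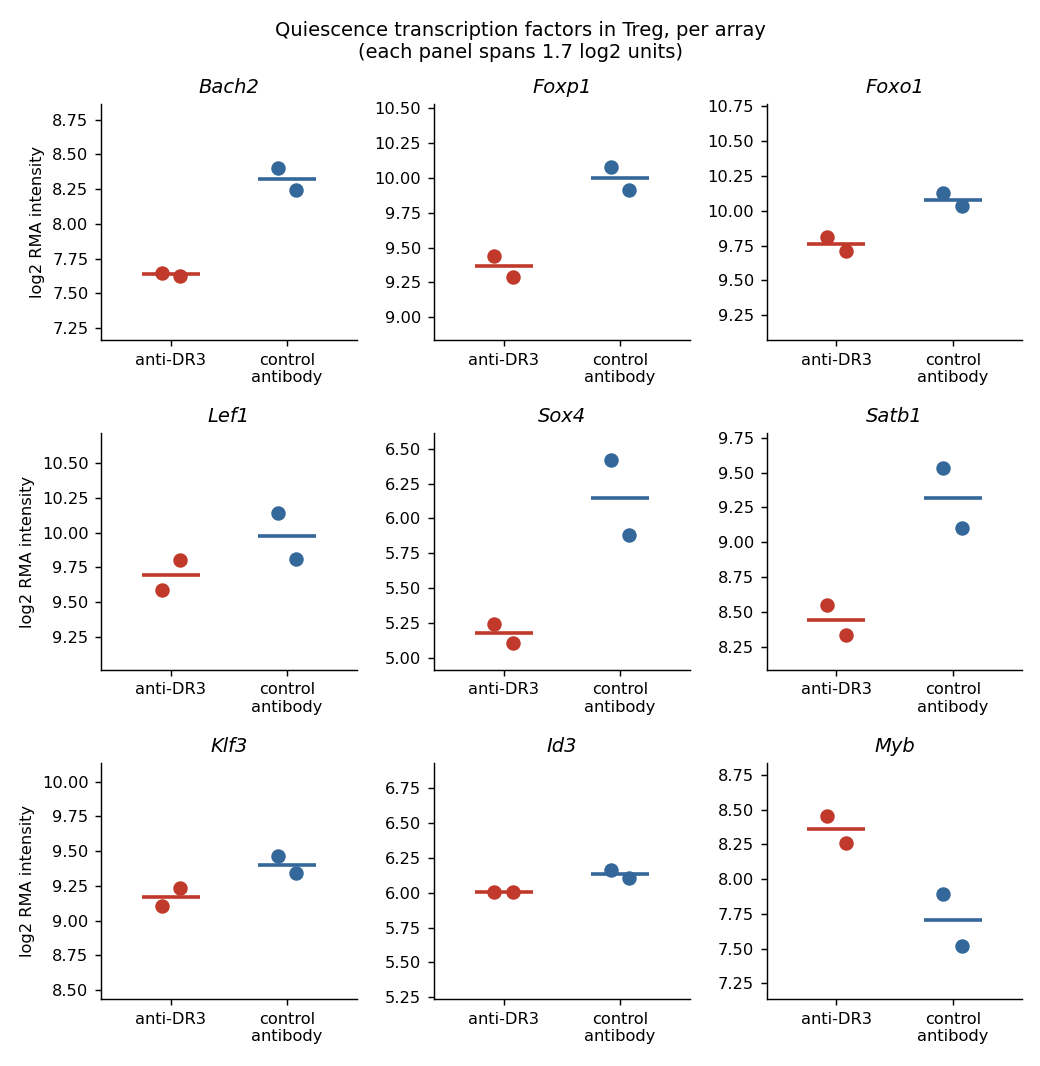
Log2 RMA intensity of the 9 measured factors on each array, anti-DR3 on the left and control antibody on the right; points are single arrays, horizontal lines are means of 2 arrays, and every panel spans the same range of log2 units. The anti-DR3 points lie below the control points for 8 factors and above them for Myb.

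Bach2 is a basic leucine zipper repressor that competes with AP-1 factors at effector genes and, in mice, restrains the effector differentiation of Treg. Its intensity was 200.1 and 198 after anti-DR3, against 338 and 303 after control antibody. The anti-DR3 arrays differed from each other by 0.02 on the log2 scale, the control arrays by 0.16, and the nearest arrays of opposite groups by 0.60. Bach2 fell by 0.69 ± 0.089 (SE, n = 2 arrays per group; 95% interval -0.90 to -0.47; limma adjusted p = 0.0177). Among the 9 members this was the lowest adjusted p.

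Foxp1 and Foxo1 are forkhead factors. Foxp1 keeps naive T cells quiescent, and Foxo1, which leaves the nucleus when Akt phosphorylates it, drives genes of lymph node homing and survival. Foxp1 gave 696 and 625 after anti-DR3, against 1083 and 963 after control antibody, with both control arrays well above both anti-DR3 arrays. It fell by 0.63 ± 0.10 (SE; 95% interval -0.88 to -0.38; limma adjusted p = 0.0283). Foxo1 gave 897 and 839 after anti-DR3, against 1118 and 1046 after control antibody. The order of the arrays was the same as for Foxp1, but the difference was -0.32 ± 0.086 (SE; 95% interval -0.53 to -0.11) and did not pass (limma adjusted p = 0.0838). A second, dimmer Foxo1 probe set gave -0.13, with 108 and 93.2 after anti-DR3, against 98.9 and 121 after control antibody, so that its groups overlapped.

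Lef1 and Sox4 bind DNA through an HMG box. Lef1, with its relative Tcf7, maintains the naive and memory-like state of T cells, and Sox4 is a factor induced by TGF-beta that restrains type 2 helper differentiation in mice. Lef1 gave 769 and 894 after anti-DR3, against 1129 and 898 after control antibody. The second arrays of the 2 groups were nearly level, 0.0059 apart on the log2 scale, so the absence of overlap for Lef1 rests on a gap far below the 0.22 and 0.33 between arrays within the anti-DR3 and control groups. Its difference was -0.28 ± 0.14 (SE; 95% interval -0.62 to 0.06; limma adjusted p = 0.264).

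Sox4 gave 37.8 and 34.5 after anti-DR3, against 85.5 and 58.8 after control antibody. Its difference was -0.97 ± 0.18 (SE; 95% interval -1.41 to -0.54; limma adjusted p = 0.0384). Sox4 was near the floor of the measurement: the arrays' medians over all probe sets were 40.2 and 40.4 after anti-DR3, against 41.6 and 42.0 after control antibody, so both anti-DR3 values lay below the median. Its anti-DR3 level is not resolved from that of dim probe sets, and no fold is given for it. A second probe set of Sox4, below the median on all arrays, gave -0.30, and Sox4 missed the threshold when quantile normalization was repeated (limma adjusted p = 0.0519).

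Satb1 folds chromatin and recruits remodelling enzymes, and in mouse Treg its level is held down by Foxp3. It gave 374 and 322 after anti-DR3, against 741 and 550.1 after control antibody. The control arrays lay 0.43 apart on the log2 scale, nearly the gap of 0.56 between the nearest arrays of opposite groups. Satb1 fell by 0.88 ± 0.16 (SE; 95% interval -1.27 to -0.49; limma adjusted p = 0.0373). Only 0.0743% of the genes tested had a lower difference than Satb1 and 0.454% a lower one than Bach2.

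Klf3 represses transcription by recruiting CtBP corepressors, and Id3 binds E proteins and keeps them off DNA. Klf3 gave 551 and 601 after anti-DR3, against 706 and 648 after control antibody, a difference of -0.23 ± 0.092 (SE; 95% interval -0.46 to -0.01; limma adjusted p = 0.179). Id3 gave 64.2 and 64.2 after anti-DR3, against 71.7 and 68.9 after control antibody, a difference of -0.13 ± 0.078 (SE; 95% interval -0.32 to 0.06; limma adjusted p = 0.351). Neither passed, and the interval of Id3 leaves room for a fall of up to 0.32.

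Myb is a factor of haematopoietic progenitors that, in mice, is also needed for the differentiation of effector Treg. It gave 351 and 307 after anti-DR3, against 238 and 183 after control antibody, so the anti-DR3 arrays were the higher ones. The difference was 0.65 ± 0.14 (SE; 95% interval 0.30 to 1.01; limma adjusted p = 0.0584) and did not pass. A second Myb probe set, dimmer but above the median on all arrays, gave 0.02, with 69.3 and 60.2 after anti-DR3, against 63.0 and 64.8 after control antibody. The 2 probe sets of Myb therefore disagreed, and the mean of both gave 0.33 (limma adjusted p = 0.123).

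**Figure D2:**
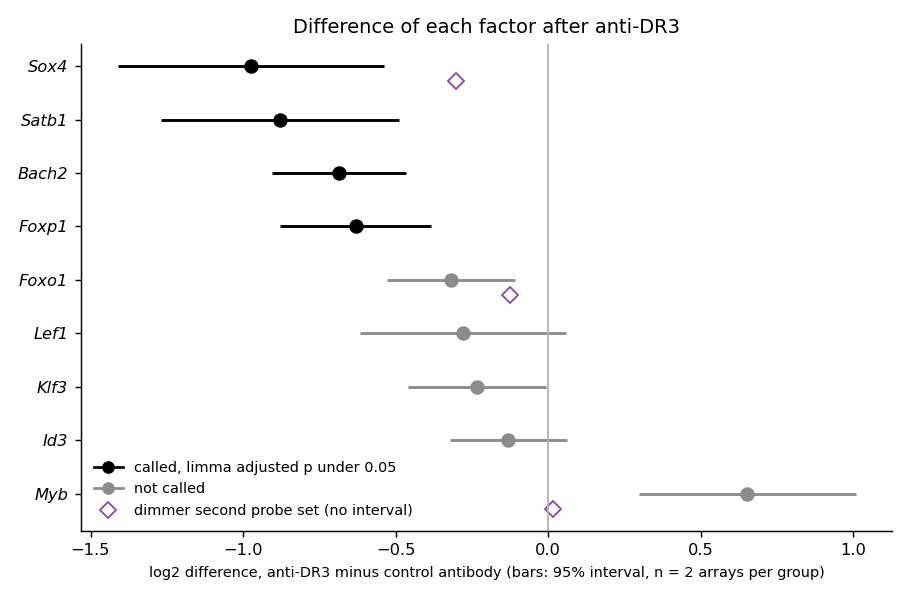
Log2 difference, anti-DR3 minus control antibody, of the 9 factors with the 95% interval from limma (n = 2 arrays per group); black marks factors past the adjusted threshold, grey those that did not pass, and open diamonds a dimmer second probe set of the same gene. Sox4, Satb1, Bach2 and Foxp1 lie between -0.97 and -0.63, while the second probe sets of Sox4, Foxo1 and Myb lie at -0.30, -0.13 and 0.02.

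Fits with 1 array left out leave 1 array in a group, and no call of a member was made in all of them. Sox4 passed the filter through the control arrays alone and had to differ, so its result in these fits is a description. Without control antibody replicate 2 the differences were -1.24 for Sox4, -1.09 for Satb1, -0.76 for Bach2 and -0.72 for Foxp1. The call of Foxp1 was lost in each of these fits. Those of Sox4, Satb1 and Bach2 were lost without anti-DR3 replicate 1, anti-DR3 replicate 2 or control antibody replicate 1. These fits leave 1 residual degree of freedom in place of 2, and calls over all genes became fewer as well. Over the fits with an array left out, the differences of Bach2 (-0.76 to -0.61) and Foxp1 (-0.72 to -0.55) moved less than those of Satb1 (-1.09 to -0.66), Sox4 (-1.24 to -0.70) and Lef1 (-0.44 to -0.11).

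All 9 members, Myb included, were higher on control antibody replicate 1 than on replicate 2, with a median gap of 0.17 on the log2 scale, while 52.3% of all genes tested were higher on replicate 1 and their median gap was 0.0088. In the anti-DR3 group 7 of the 9 were higher on replicate 1, with a median gap of 0.10 against 0.0017 over all genes. The part of this difference between control arrays in the members' differences was not tested beyond the fits without each array.

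**Figure D3:**
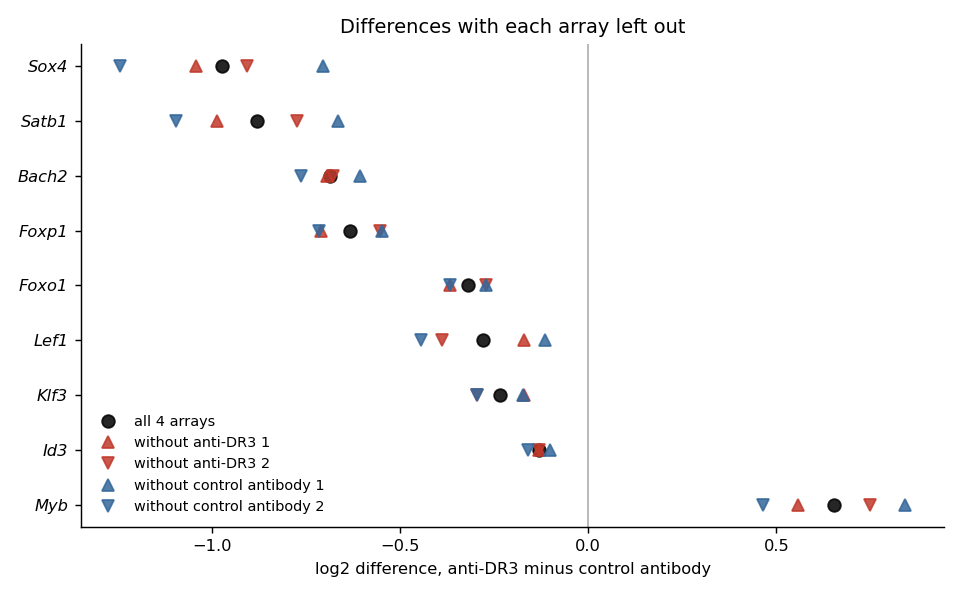
Log2 difference, anti-DR3 minus control antibody, of the 9 factors with all 4 arrays (black) and after dropping 1 array at a time (red without an anti-DR3 array, blue without a control array). Leaving out control antibody replicate 1 brings Sox4 to -0.70 and Satb1 to -0.66, and leaving out control antibody replicate 2 takes them to -1.24 and -1.09.

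The gene of like pattern nearest to Sox4, the called member with the largest difference, was Vps37b, a subunit of the ESCRT sorting machinery, at a Euclidean distance of 0.16 between log2 values centred per gene over the 4 arrays. Dusp10, a MAP kinase phosphatase, and Cnn3, an actin-binding calponin, followed at 0.17 and 0.20. These genes were picked by nearness to the 4 values of Sox4, so their negative differences of -0.85, -0.85 and -0.79 follow from the choice. Of the 3 only Vps37b passed (limma adjusted p = 0.0376), which is no separate result. Sox4 itself lay below the arrays' medians after anti-DR3.

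The stretches upstream of 4 members are shown because Sox4, Satb1 and Bach2 were called lower and Myb was not, and these have the largest differences of the 9. Each is the 250 bases before the first transcription start listed for the gene by RefSeq (GRCm38.p6), 5′ to 3′ on the gene's strand, with capitals for matches, on either strand, to GTAAACA (forkhead), ATCAAAG (TCF and LEF), AACAAT (SOX), CANNTG (E-box), TGANTCA (BACH and AP-1), CACCC (KLF) or AACTG (MYB).
Sox4, chr13:28953700-28953949, minus strand: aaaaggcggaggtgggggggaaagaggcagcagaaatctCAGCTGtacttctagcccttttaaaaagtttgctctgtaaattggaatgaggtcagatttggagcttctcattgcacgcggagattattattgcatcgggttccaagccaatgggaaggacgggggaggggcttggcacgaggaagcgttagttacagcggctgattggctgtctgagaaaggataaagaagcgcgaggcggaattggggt
Satb1, chr17:51833291-51833540, minus strand: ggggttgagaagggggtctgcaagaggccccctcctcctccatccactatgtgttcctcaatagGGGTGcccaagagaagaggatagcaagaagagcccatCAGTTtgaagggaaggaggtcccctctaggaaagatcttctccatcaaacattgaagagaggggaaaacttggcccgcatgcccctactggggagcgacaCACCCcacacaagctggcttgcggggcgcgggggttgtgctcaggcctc
Bach2, chr4:32417185-32417434, plus strand: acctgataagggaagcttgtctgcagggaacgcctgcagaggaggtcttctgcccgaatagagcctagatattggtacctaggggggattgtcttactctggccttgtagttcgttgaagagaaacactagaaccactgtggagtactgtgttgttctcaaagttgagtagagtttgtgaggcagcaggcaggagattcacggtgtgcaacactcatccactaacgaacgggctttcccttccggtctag
Myb, chr10:21160985-21161234, minus strand: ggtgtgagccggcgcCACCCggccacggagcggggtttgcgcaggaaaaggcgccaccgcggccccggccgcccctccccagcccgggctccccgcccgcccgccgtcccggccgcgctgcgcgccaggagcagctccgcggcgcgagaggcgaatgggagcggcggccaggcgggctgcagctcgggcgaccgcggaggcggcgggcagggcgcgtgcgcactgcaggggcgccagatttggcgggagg

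The capitals in the Sox4 stretch are an E-box match 206 to 211 bases before the start. Those in Satb1 are KLF matches 182 to 186 and 45 to 49 bases before the start and a MYB match at 145 to 149, and Satb1 has 5 listed starts, of which the first is shown. Bach2 has no match in its window and Myb has 1 KLF match, 231 to 235 bases before the start. The Myb window is 81.2% G and C, against 50.8% for Sox4, 58.0% for Satb1, 50.4% for Bach2 and a median of 52.0% over the first listed windows of 27025 genes.

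Over the first listed windows of all 10 members, Tcf7 included, 0 held the forkhead, TCF and LEF, SOX, or BACH and AP-1 letters, which occurred in 3.09%, 3.23%, 9.65% and 6.87% of all windows. The E-box letters were in 6 of the 10, against 66.0% of all windows, the KLF letters in 7, against 51.3%, and the MYB letters in 2, against 39.1%. An E-box match and the MYB match of Foxp1 overlap each other. These counts describe the letters of short windows and say nothing of binding.

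Of the 31 family relatives listed, 22 were tested, and 3 rose and 0 fell, with a median difference of -0.04. The largest rise was Klf12, a repressor of the same zinc finger family as Klf3, with 127 and 132 after anti-DR3, against 61.8 and 52.6 after control antibody, a difference of 1.18 ± 0.10 (SE; limma adjusted p = 0.00988). Id2, the relative of Id3 that accompanies effector differentiation, had 604 and 631 after anti-DR3, against 415 and 437 after control antibody, and rose by 0.54 ± 0.082 (SE; limma adjusted p = 0.0265). Klf8 rose by 0.47 (limma adjusted p = 0.0490), a call lost with median centring, which left 2 rises and 1 fall, that of Klf2. Klf2, which drives the egress receptor S1pr1, gave 390 and 411 after anti-DR3, against 647 and 520 after control antibody, a difference of -0.54 that did not pass (limma adjusted p = 0.0615). With anti-DR3 replicate 1, anti-DR3 replicate 2, control antibody replicate 1 or control antibody replicate 2 left out, 0, 0, 1 and 1 relatives rose and 0, 0, 0 and 3 fell, and the median, -0.10 to 0.0030 over these fits, was above 0 in the last. Whether Id2 and Id3, or Klf12 and Klf3, differed from each other in their response was not tested.

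Of the 22 partners and upstream regulators listed, 19 were tested and limma called 0 of them. Their median difference was 0.00066, and 4 of the 19 had an unadjusted p under 0.05, against 3166 of all 12114 genes tested. They include the E proteins bound by Id3, the corepressors and beta-catenin bound by Lef1, the small Maf partners of Bach2 and the kinases that act on Foxo1. The lowest p-values belonged to the kinases Sgk1, with 248 and 253 after anti-DR3, against 198 and 177 after control antibody (difference 0.42, limma adjusted p = 0.0534), and Akt1 (0.34, limma adjusted p = 0.0650).

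Genes reported as activated by Foxo1 had 1 fall and 0 rises among 13 tested of 15 listed, with a median of -0.11. Irs2, an adaptor of insulin signalling, fell by 0.71 (limma adjusted p = 0.0218), with 275 and 282 after anti-DR3, against 491 and 421 after control antibody. Il7r, the interleukin 7 receptor chain of resting T cells, ran the other way with a difference of 0.44 that did not pass (limma adjusted p = 0.0519), and Pik3ip1, an inhibitor of PI3 kinase, had -0.46 (limma adjusted p = 0.0723). Without control antibody replicate 2 there were 3 falls in this list, with median centring 2, and without each of the other 3 arrays 0. Targets of Tcf7 and Lef1 had 2 rises and 1 fall among 9 tested of 12 listed, with a median of 0.08. Ccnd1, the cyclin D1 gene, was tested through the anti-DR3 arrays alone, and without it the median was -0.03. Without control antibody replicate 2 there were 2 rises and 0 falls, and without each of the other 3 arrays 0 of both. Rnf43 and Znrf3, ligases that remove Wnt receptors from the membrane, moved apart, Rnf43 rising by 0.65 and Znrf3 falling by 0.57 (limma adjusted p = 0.0269 and 0.0410). Slamf6, a receptor of memory-like T cells, rose by 0.64 (limma adjusted p = 0.0156), with -0.17 at a dimmer probe set that was also above the median.

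Genes reported as repressed by Bach2 had 6 rises and 0 falls among 11 tested of 13 listed, with a median of 0.63. Of all genes tested, 4.49% rose and 1.47% fell. The 6 rises of the list included Gzmb, the granzyme B gene (1.09, limma adjusted p = 0.0106). Gzmb gave 110 and 94.4 after anti-DR3, against 50.3 and 45.9 after control antibody. Its control values lay close above the control arrays' medians of 41.6 and 42.0. Ahr, a ligand-activated transcription factor, gave 401 and 388 after anti-DR3, against 229 and 254 after control antibody. It rose by 0.71 ± 0.089 (SE; limma adjusted p = 0.0161). Ccr4, a chemokine receptor, gave 395 and 383 after anti-DR3, against 184 and 230.2 after control antibody, and rose by 0.92 ± 0.12 (SE; limma adjusted p = 0.0187). Il12rb1, a chain of the interleukin 12 receptor, rose by 0.63 (limma adjusted p = 0.0277). Prdm1, the gene of Blimp-1, was singled out after its values were seen, with 286 and 353 after anti-DR3, against 169 and 228 after control antibody, a difference of 0.70 that did not pass (limma adjusted p = 0.0713). The list was written with earlier results known and says nothing on whether Bach2 acted on these genes.

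Other quiescence regulators had 1 rise and 0 falls among 16 tested of 17 listed, with a median of -0.13. The rise was Rbl2, a pocket protein that represses cell cycle genes in resting cells, with 2057 and 2079 after anti-DR3, against 1316 and 1476 after control antibody, a rise of 0.57 ± 0.090 (SE; limma adjusted p = 0.0281). Tob1, Tsc22d3 and Btg2, which slow proliferation, had differences of -0.41, -0.38 and -0.33 that did not pass (limma adjusted p = 0.0523, 0.0527 and 0.0685). There was also 1 rise without control antibody replicate 2, and 0 genes were called without each of the other 3 arrays. With median centring 2 genes of this list fell, Tob1 and Tsc22d3 (limma adjusted p = 0.0406 and 0.0437).

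Naive T cell surface and signalling genes had 5 falls and 0 rises among 10 tested of 12 listed, with a median of -0.47. Of all genes tested, 1.47% fell and 4.49% rose. Actn1, an actin cross-linker, gave 503 and 425 after anti-DR3, against 849 and 877 after control antibody, and fell by 0.90 ± 0.10 (SE; limma adjusted p = 0.0134). Igfbp4, a binding protein of insulin-like growth factors, gave 89.0 and 81.7 after anti-DR3, against 125 and 125 after control antibody, and fell by 0.55 ± 0.084 (SE; limma adjusted p = 0.0269).

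Effector Treg transcription factors had 3 rises and 0 falls among 8 tested of 10 listed, with a median of 0.48. Of all genes tested, 4.49% rose and 1.47% fell. Nr4a1, named for having the lowest difference of the list, ran the other way at -0.36 and did not pass (limma adjusted p = 0.0809). Batf, an AP-1 factor that pairs with Irf4, gave 226 and 247 after anti-DR3, against 128 and 121 after control antibody, and rose by 0.92 ± 0.090 (SE; limma adjusted p = 0.0104). Bhlhe40 rose by 0.65 and Rora by 0.62 (limma adjusted p = 0.0151 and 0.0187), and Maf had 0.56 (limma adjusted p = 0.0523), with 0.65 at its other probe set. Of 7 mitosis genes tested of 10 listed, 6 rose, with a median of 1.53. Among them, Ccna2, the cyclin A2 gene, gave 127 and 141 after anti-DR3, against 35.8 and 39.2 after control antibody, below the control arrays' medians. It was tested through the anti-DR3 arrays alone and so had to differ, and without it 5 of 6 rose, with a median of 1.22. The summed intensity of the list was 1664 and 1646 after anti-DR3, against 576 and 630.0 after control antibody, and the part of dividing cells in the members' differences was not tested. The counts of calls in these lists changed with the array left out. With anti-DR3 replicate 1, anti-DR3 replicate 2, control antibody replicate 1 or control antibody replicate 2 left out, 0, 0, 1 and 4 genes repressed by Bach2 rose, 0, 0, 1 and 2 naive T cell genes fell, 0, 0, 1 and 2 effector Treg factors rose and 4, 0, 4 and 6 mitosis genes rose. In these 4 fits the list medians were 0.48 to 0.57 for genes repressed by Bach2 and -0.55 to -0.40 for naive T cell genes. The fits share arrays with the main fit, and most genes repressed by Bach2 did not overlap between groups. That the medians kept their direction therefore adds no support.

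**Figure D4:**
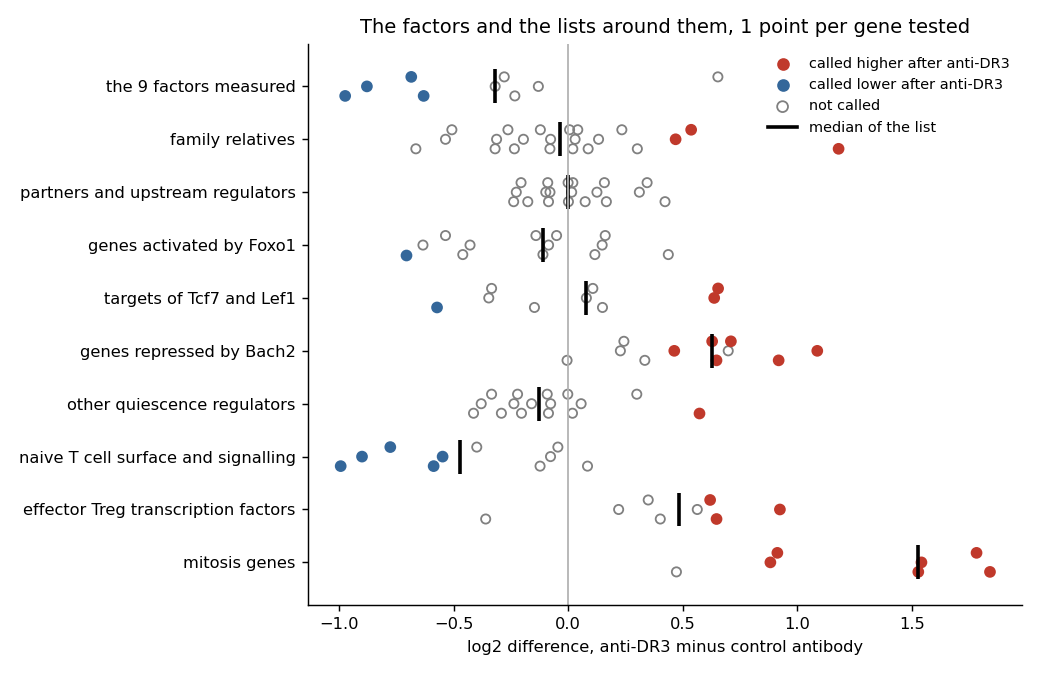
Log2 difference, anti-DR3 minus control antibody, of each tested gene of the 9 factors and of 9 lists around them; filled points passed the adjusted threshold in limma (red higher, blue lower), open points did not, and bars are list medians. The medians are -0.32 for the factors and -0.47 for naive T cell genes. They are 0.63 for genes repressed by Bach2, 0.48 for effector Treg factors and 1.53 for mitosis genes. Without Sox4 and Ccna2, which passed the filter through 1 group alone, the factors have -0.30 and the mitosis genes 1.22.

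Conventional CD4 T cells share many of these factors with resting Treg. Of the 7 markers of conventional CD4 T cells, 5 were tested and limma called 0. Of the 5, 3 had an unadjusted p under 0.05, against 3166 of all 12114 genes tested. The median difference was -0.22, and Il2 and Il21 were below the filter. The summed intensity of the 7 was 1923 and 1986 after anti-DR3, against 2110 and 2003 after control antibody. The part of these markers in the members' differences was not tested. CD8 T cell markers had 1 rise (Cd8b1) among 3 tested of 5 listed, with a median difference of -0.13. The other genes tested, Crtam and Gzmk, had -0.13 and -0.16 and were not called, and Cd8a and Klrd1 were below the filter. The 5 summed to intensities of 378 and 399 after anti-DR3, against 354 and 338 after control antibody. Monocyte, macrophage and dendritic cell markers had 1 rise (Csf1r) among 4 tested of 9 listed, with sums of 705 and 735 after anti-DR3, against 711 and 794 after control antibody. B cell, natural killer cell, type 2 innate lymphoid cell and stromal, endothelial and epithelial markers had 0 calls in limma among 2, 1, 2 and 5 tested, where 1 innate lymphoid cell marker had an unadjusted p under 0.05, and the defining B cell genes Ms4a1, Cd79a and Pax5 were below the filter. All 6 measured markers of neutrophils, mast cells and platelets were below the filter.

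**Figure D5:**
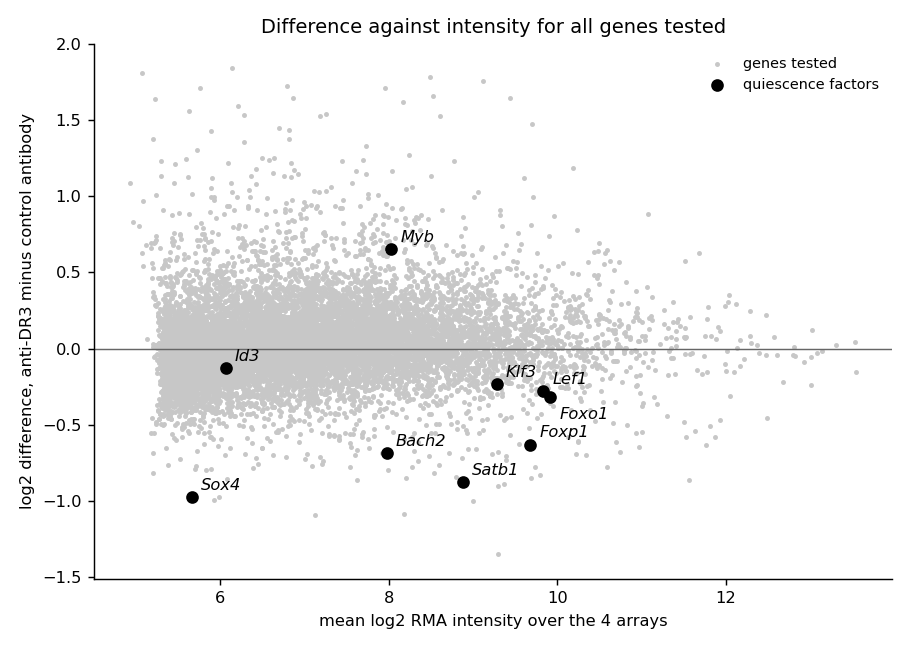
Log2 difference, anti-DR3 minus control antibody, against the mean log2 RMA intensity over 4 arrays for the 12114 genes tested (grey), with the 9 factors in black. Satb1 and Bach2 lie at the lower edge of the genes around them, Sox4 lies at the dim end, and Lef1, Klf3 and Id3 lie within the grey cloud.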

How the data were processed

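Per the submitters' processing notes the authors made the values by RMA; the sources used here name no software, version or genome build. The range of the deposited intensities shows a linear scale, so log2 was taken. The platform annotation lists 1 gene symbol for 23521 of 41345 probe sets, several for 1814 and none for 16010. Genes above an array's median on at least 2 of 4 arrays were tested with limma 3.58.1 in R 4.3.3 (lmFit, eBayes; 2 residual and 3.94 prior degrees of freedom; two-sided; Benjamini-Hochberg over all 12114 genes). Differences are anti-DR3 minus control antibody. An exact permutation test of 2 against 2 arrays cannot go below p = 0.333. The number of arrays limits the precision.

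Members and lists were chosen with earlier results of these data known. Named were the members, Foxp3, up to 4 genes of each list by p, and the 3 genes nearest to the most changed called member. Alternatives covered the replicate block, each array left out, filters, normalization, variance model, weights, probe sets, threshold and pseudocount. The code was tested on simulated data.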

Additional observations from a re-analysis of the deposited data

How the results depend on the processing

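For the 9 members, 142 values under alternatives held 113 that kept direction and side of the threshold, 22 that lost a call, 7 that gained one and 0 that turned direction. For 44 other named genes these were 510, 141, 51 and 0 of 702. Among the members, only those called in the main fit could lose a call. Leaving out an array could not turn a member's direction, since no member's arrays overlapped, and several settings reuse the main difference unchanged. The 0 for the members is therefore no support for their directions. Leaving out each array gave 0 to 312 genes called and 0 to 3 members called in limma. No filter on dim genes gave 14 genes and 0 members. An unadjusted p under 0.05 was then found for 6 members and for 3573 of 22180 genes. The ordinary linear model gave 0 genes (2087 unadjusted) and 0 members (4 unadjusted). A trended robust prior gave 1444 genes and an adjusted p under 0.10 gave 1689, each with 6 members. Foxo1 was called with the trended robust prior (adjusted p = 0.0207, limma) and Myb with it, with the replicate block, under the stricter filter and at log2 of the value plus 16 (0.0157, 0.0360, 0.0448 and 0.0354). The causes were not tested. The labels do not say what replicate numbers share. The deviations of same-numbered arrays correlated at 0.051, and the replicate block gave 563 genes and 5 members. Sox4 was not tested under the stricter filter or with the mean of all probe sets.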
